A study of Mus musculus with 4 samples.

Results

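The untreated palatal mesenchymal culture was 1 of the 4 cultures in the study, and it was chosen by its treatment label alone. Its array gave a signal for 18193 genes, each read from the brightest probe set that names that gene and no other. The cells were a primary culture from E14.0 (embryonic day) mouse embryos of outbred wild-type stock, with neither ligand nor inhibitor added. The other 3 cultures received TGF-β2 for 120 minutes, in 2 of them after 60 minutes with the inhibitor SB431542 or 5Z-7-Oxozeaenol, and no value from their arrays is used here. From the untreated cells 500 ng of total RNA was amplified, biotin-labelled and read on 1 Affymetrix 3′ expression array. The sources used here do not state the number of embryos, the dissection or the days in culture. With 1 array there is no spread between samples, so the ranks below are descriptions and carry no test.

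The palatal shelves grow out of the maxillary processes on either side of the tongue, turn to the horizontal and fuse at the midline to form the roof of the mouth. Most of their mesenchyme descends from cranial neural crest, a cell population that forms the connective tissue and skeleton of the face, and blood vessels, nerves, tissue macrophages and muscle precursors run through it. The shelf is covered by epithelium, and signals such as Shh from the epithelium and Bmp and Fgf ligands from the mesenchyme pass between both layers. Along the shelf, transcription factors such as Shox2 and Msx1 mark the anterior part and Meox2, Tbx22 and Barx1 the posterior part, while Osr2 is graded from the oral to the nasal side.

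The deposited signal is a linear intensity, and its mean over all probe sets, with 2% left out at each end, was 499.8. Probe sets bind their targets with unequal strength, so a rank is a rank of signal and not of transcript number. Sensory receptor genes, which code for olfactory, vomeronasal, taste and trace amine receptors, served as the measure of background. The 77 such genes had a median signal of 22.4 and ranged from 1.61 to 168. Their 95th percentile, 75.9, is used as the background bound, and it lay at percentile 37.6 of all genes. Only 6 of these 77 genes have 2 or more probe sets, against 9010 of all 18193 genes. The bound thus mostly describes single probe sets, and a gene with several has more chances to reach it from background. How many genes did so was not tested. Of the 18193 genes, 11348 (62.4%) were at or above the bound, and the 1820 in the top 10% had signals of 2853 or more. A signal below the bound cannot be told apart from background and does not show that a gene was silent.

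**Figure D1:**
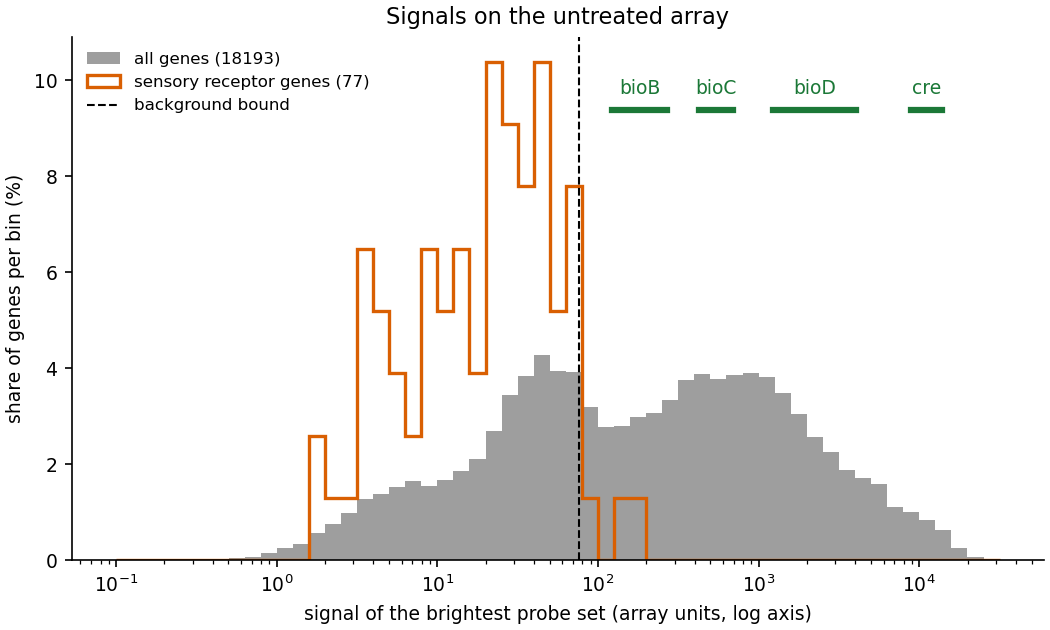
Share of genes per signal bin on the untreated array (y axis, percent) against the signal of the brightest probe set (x axis, array units, log scale), for all 18193 genes in grey and the 77 sensory receptor genes in orange. The dashed line is the background bound of 75.9, and the green bars span the probe sets of the 4 spiked-in control transcripts, which begin at 123 for bioB and end at 13935 for cre. All genes form a lower and an upper hump on either side of the bound, and the sensory receptor genes lie in the lower one, 4 of 77 above the bound.

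The hybridisation controls, bacterial and phage transcripts added in rising amounts, gave rising signals. The median was 197 for bioB (6 probe sets), 607 for bioC, 3374 for bioD and 10561 for cre (4 probe sets each). The 3′ to 5′ signal ratio, a sign of RNA integrity, was 0.851 for Gapdh and 0.984 for Actb. Precision had to be read from the probe sets of a gene in place of replicates. Among the 9010 genes with 2 or more probe sets, the median log2 ratio of the brightest to the next was 1.5 (interquartile range 0.62 to 2.98), a median gap of 13.8 percentile points. Of the 7122 such genes at or above the bound, 4869 (68.4%) had a second probe set there too, and of the 1325 in the top 10%, 1200 (90.6%) did. A second probe set above background was thus more frequent among the genes of the top 10%.

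Of the 5 genes chosen to mark the culture, 4 were in the top 10% and Osr2 was below the bound. Prrx1, a homeobox factor of craniofacial and limb mesenchyme, had a signal of 10097 (percentile 98.3), and 5 of its 6 probe sets were above the bound. Col1a1, a chain of type I collagen, had 2 probe sets at 10690.3 and 10452, nearly the same value. Pdgfra, the PDGF receptor of crest-derived mesenchyme, had 3643 (percentile 92.1), with its other probe sets at 243 and 158. These 3 genes describe a mesenchymal culture. Osr2, the factor of the oral side of the palatal shelf, had 13.7 and 3.84 on its 2 probe sets, both below the bound and at or under percentile 12.9. Osr2 thus gave no signal above background for the palatal label, while 44 of the 54 palatal regulators set out below were at or above the bound. Lyz2, the lysozyme of macrophages and other myeloid cells, had 15113 on its single probe set (percentile 99.6), the highest rank of the 5.

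All 24 measured genes of a general mesenchymal list were at or above the bound, and 19 of them (79.2%) were in the top 10%, with a median percentile of 97.5 against a median of 50 over all genes by construction. Vim, the intermediate filament of mesenchymal cells, had 3 probe sets between 15291 and 19144. Fstl1, a secreted glycoprotein, had 18414 and 14213. Both genes were high on every probe set. Sparc, a collagen-binding matrix protein, reached 18035, yet the dimmest of its 3 probe sets gave 68.7. Cdh11, the cadherin of mesenchymal cells, had 11601, and Cdh2, N-cadherin, had 3584. Both receptors for PDGF were in the top 10%, Pdgfrb with 8363 as the brighter. Thy1, a surface protein of fibroblasts, had 6206, and the proteoglycan Dcn, which binds collagen fibrils, had 6992. The list's lowest members were Fap (358), a protease of activated fibroblasts, Nt5e (339), the surface nucleotidase CD73, and Eng (257), a TGF-β co-receptor. Of its 18 genes with several probe sets, 14 had a second probe set at or above the bound.

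The promoters of the list's brightest pair of genes and of Lyz2 are shown because they stand for the mesenchymal and the macrophage signal of the culture. Each is the 100 bases before the RefSeq transcription start, build GRCm38.p6, 5′ to 3′ on the gene's strand, with the motifs TATAAA and GGGCGG, searched on both strands, in capitals. They lie at chr2:13574211-13574310 (plus strand) for Vim, chr16:37776955-37777054 (plus strand) for Fstl1 and chr10:117282273-117282372 (minus strand) for Lyz2.
Vim: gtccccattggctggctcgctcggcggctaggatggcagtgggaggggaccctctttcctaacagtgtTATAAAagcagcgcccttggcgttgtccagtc
Fstl1: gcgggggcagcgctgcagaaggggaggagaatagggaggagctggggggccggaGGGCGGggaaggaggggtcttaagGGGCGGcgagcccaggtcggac
Lyz2: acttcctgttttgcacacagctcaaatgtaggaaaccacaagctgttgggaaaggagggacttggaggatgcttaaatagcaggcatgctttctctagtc
The Vim window holds 1 TATAAA, the sequence of a TATA box, and 5 CpG dinucleotides. The Fstl1 window holds 2 GGGCGG, the core letters of a GC box, and 7 CpG. The Lyz2 window holds neither motif and 0 CpG. In the same window of all 27025 RefSeq promoters of the build, 5.95% hold TATAAA and 25.2% hold GGGCGG, and the median number of CpG is 3. These are matches of letters and say nothing of the factors that bind there.

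The 30 brightest genes ran from 17339 (Cfl1, an actin-severing protein) to 22511 (Rps18), and 12 of them were on the list of ribosomal protein genes. Rps3a1 (21389), which that list does not hold, also codes for a ribosomal protein. Of the others, Fabp5, a fatty acid binding protein, had 22251 and 14719 on its probe sets and ranked 2 of 18193. Lgals1, a galectin of mesenchymal cells, had 20689 and 13177. Fth1, the ferritin heavy chain, had 19869.9. Ccn2, a matricellular protein that TGF-β is known to induce, had 19090.5 before any TGF-β2 was added, and Bgn, a small proteoglycan, had 18434. The smooth muscle actin gene Acta2 ranked 22 with 18162, although its dimmest probe set gave 44.1. Besides protein synthesis, the top of the ranking thus held cytoskeletal and matrix genes. Over the whole list of ribosomal protein genes, 44 of 46 were at or above the bound and 35 in the top 10%.

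Matrix genes stood high as a group, with exceptions in single families. Of 42 collagen chain genes, 26 (61.9%) were at or above the bound, close to the 62.4% of all genes, but 12 (28.6%) were in the top 10%. The fibrillar chains of loose connective tissue led. Col1a2, the partner of Col1a1 in type I collagen, had 17662, and Col3a1, type III collagen, had 16755. Col5a2 and Col5a1, which nucleate type I fibrils, had 15639.7 and 12545. Col12a1, a fibril-associated collagen, had 15147 on its brightest probe set and 6.40 on its dimmest. The microfibrillar type VI chains followed with 11686 for Col6a3, 10144 for Col6a2 and 8701 for Col6a1. The basement membrane chains Col4a1 (6878) and Col4a2 (4245) were in the top 10% as well. Chains known from cartilage stood lower. Col11a1, which is also made outside cartilage, had 2026, Col2a1 had 386, and Col9a2 and Col10a1 had 3.97 and 4.17, both below the bound. The epithelial chain Col17a1 was also below it at 7.85, and the anchoring fibril chain Col7a1 was above it at 264.

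**Figure D2:**
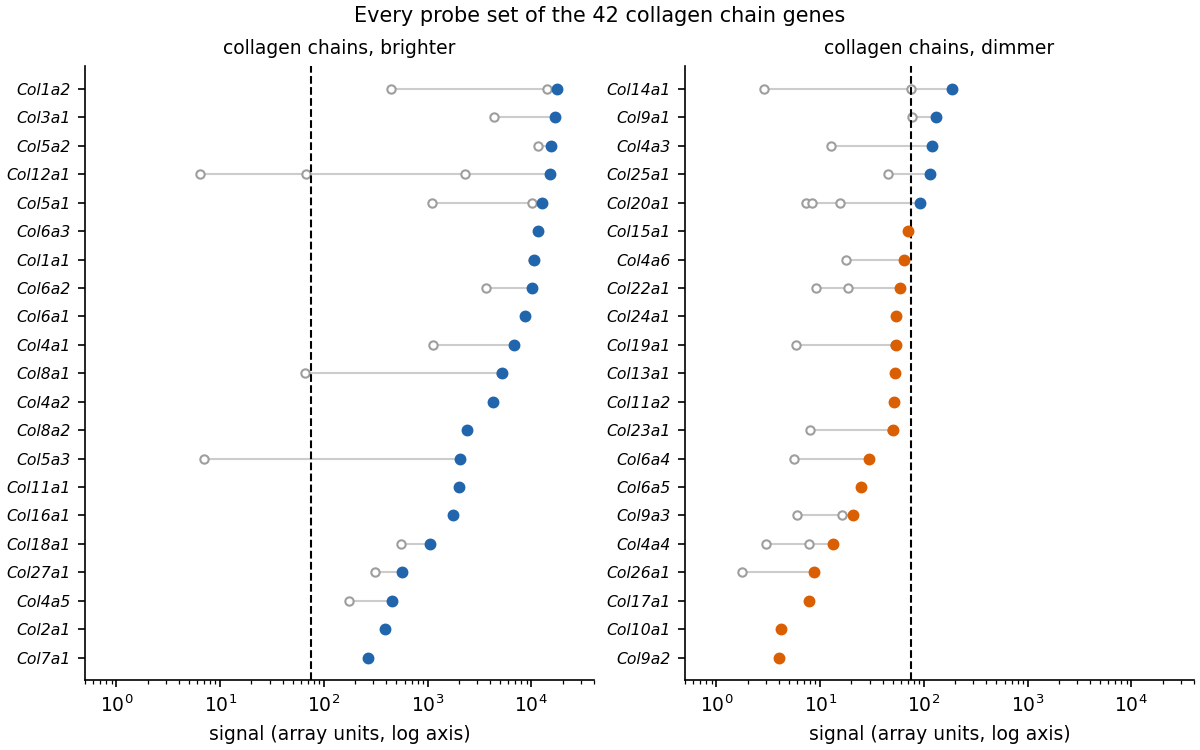
Signal of every probe set (x axis, array units, log scale) of the 42 collagen chain genes (y axis), ordered by the brightest probe set, which is filled blue at or above the background bound and orange below it. Open circles are the gene's other probe sets, joined by a line, and the dashed line is the bound of 75.9. The 12 chains of types I, III, IV, V, VI, VIII and XII in the top 10% head the left panel, and Col10a1 and Col9a2 are at the foot of the right one.

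Genes for collagen maturation ranked with the fibrillar chains: all 21 measured were at or above the bound, 11 (52.4%) in the top 10%, with a median percentile of 91.3. Serpinh1, the chaperone of procollagen, had 17244 and 13574. Lox, the enzyme that crosslinks collagen and elastin, had 16502, and Pcolce, an enhancer of procollagen processing, had 12895. The lowest was P3h2, a prolyl hydroxylase of basement membrane collagen, with 86.7. Of 43 matrix glycoproteins 39 (90.7%) were at or above the bound and 20 (46.5%) in the top 10%. Postn, periostin, a glycoprotein of collagen-rich tissue, had 15934. Fn1, fibronectin, had 15056 and Thbs1, thrombospondin 1, 12889. Eln, the elastin gene, was far lower at 281, and Comp, a protein of cartilage and tendon, was below the bound at 30.2. Latent TGF-β binding proteins, which hold TGF-β in the matrix, gave 5059 for Ltbp2, 3273 for Ltbp1, 2039 for Ltbp3 and 339 for Ltbp4. Fbn2, a fibrillin of embryonic microfibrils, had 1508.

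Of 31 proteoglycan and hyaluronan genes 26 (83.9%) were at or above the bound and 12 (38.7%) in the top 10%. After Bgn the brightest were Cd44, the hyaluronan receptor, with 12221, and Fmod, fibromodulin, with 9159.7. Has2, the hyaluronan synthase of embryonic mesenchyme, had 1606, against 115 for Has1 and 22.4 for Has3, the last below the bound. Hyaluronan is the hydrated matrix sugar of the palatal shelf before it turns. Vcan, versican, which binds hyaluronan, had 1909 on the brightest of 8 probe sets. The matrix proteases and their inhibitors gave 29 of 30 (96.7%) at or above the bound and 14 (46.7%) in the top 10%. The inhibitors Timp1, Timp3 and Timp2 had 14403, 13729.5 and 12698. The collagenase Mmp13 had 10278, the gelatinase Mmp2 8130.4 and its activator Mmp14 8824. Mmp12, known as the elastase of macrophages, had 13112, and Mmp9, known from osteoclasts and macrophages, 872. Of 23 integrin subunits, the cell's matrix receptors, 20 were at or above the bound, led by Itgav (10874), Itgb5 (6819) and Itgb1 (6359). The next probe set of Itgav gave 173 and its dimmest 5.48, whereas the 4 of Itgb5 were all at 3407 or more. Itgb4, the hemidesmosome subunit of epithelium, was below the bound at 7.44.

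Of 54 measured palatal mesenchyme regulators, 44 (81.5%) were at or above the bound, with a median percentile of 62.4. Only 3 (5.56%) were in the top 10%, fewer than the 10% of all genes: Prrx1, Snai2 and Prrx2. Snai2, a zinc finger factor of migrating crest and mesenchyme, had 6599 and 1179, and Prrx2, the close relative of Prrx1, had 5045. Below these came Zeb1 (2102), a repressor of epithelial genes, and Sox11 (1885), whose 6 probe sets were all at 267 or more. Lhx8, a LIM homeobox factor of the oral mesenchyme, had 1857, and Nr2f2, an orphan nuclear receptor, 1777. Twist1, a bHLH factor of cranial mesenchyme, had 1147, Dlx2, of the branchial arch code, 812, and Six2 808. Pax9, which palate growth requires in the mouse, had 224, and Osr1, the relative of Osr2, 496. Of the 28 regulators at or above the bound that have several probe sets, 22 had a second one there too.

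The 10 palatal regulators below the bound included several with textbook roles in the shelf. Osr2 was the lowest of the 54. Tbx22, a posterior T-box factor whose loss causes cleft palate with ankyloglossia, had 28.2, and Tfap2b, a factor of cranial crest, had 45.8 and 41.7. Alx4 (70.7), Tcf21 (67.8), Sox5 (62.8) and Pitx1 (60.4) were just under the bound. Gli1, a target of hedgehog signalling, had 37.8, Dlx6 30.4 and Hand2, a factor of the lower jaw, 24.8.

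Regional genes from both ends of the palate gave signals in the same culture. Of 8 anterior genes 7 were at or above the bound: Inhba, which codes for the activin A subunit, had 10201, Shox2 1487 and 399, Msx1 780.0 and 118, and Alx1 337. Bmp4, which acts in a loop with Msx1, had 239, and Fgf10 was below the bound at 64.2. Of 5 posterior genes 4 were at or above it. The transcriptional regulator Mn1 had 1263, Barx1 839, Sim2 514 and Meox2 158, with 36.8 on the other Meox2 probe set. On the oral to nasal axis, the oral-side genes Sfrp1, a secreted Wnt inhibitor, and Foxf1 and Foxf2, targets of hedgehog signalling, had 2338, 1312 and 426, while Osr2 was below the bound. The nasal-side genes Fgf7, a growth factor for epithelium, and Dlx5 had 2776 and 473. The median percentiles of the anterior and posterior lists were 64.5 and 64.6. The signals do not place the culture in the anterior or the posterior shelf, and 1 RNA sample cannot tell a mixture of regions from cells that express both sets.

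The Hox cluster genes, which pattern the body behind the first branchial arch, were the counterpart. Of 33 measured Hox genes 5 (15.2%) were at or above the bound and 0 in the top 10%, with a median percentile of 21.8. The 5 were Hoxa3 (239.9), Hoxa5 (176), Hoxa9 (167), Hoxc6 (138) and Hoxb6 (76.2). None had a second probe set at or above the bound, and the dimmest probe sets of Hoxa3, Hoxa5, Hoxa9 and Hoxc6 gave 22.7, 7.16, 4.66 and 4.60. With the median of each gene's probe sets, or with a bound of 143, the number was 3. Hoxa2, the Hox gene of the second branchial arch, had 41.5.

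**Figure D3:**
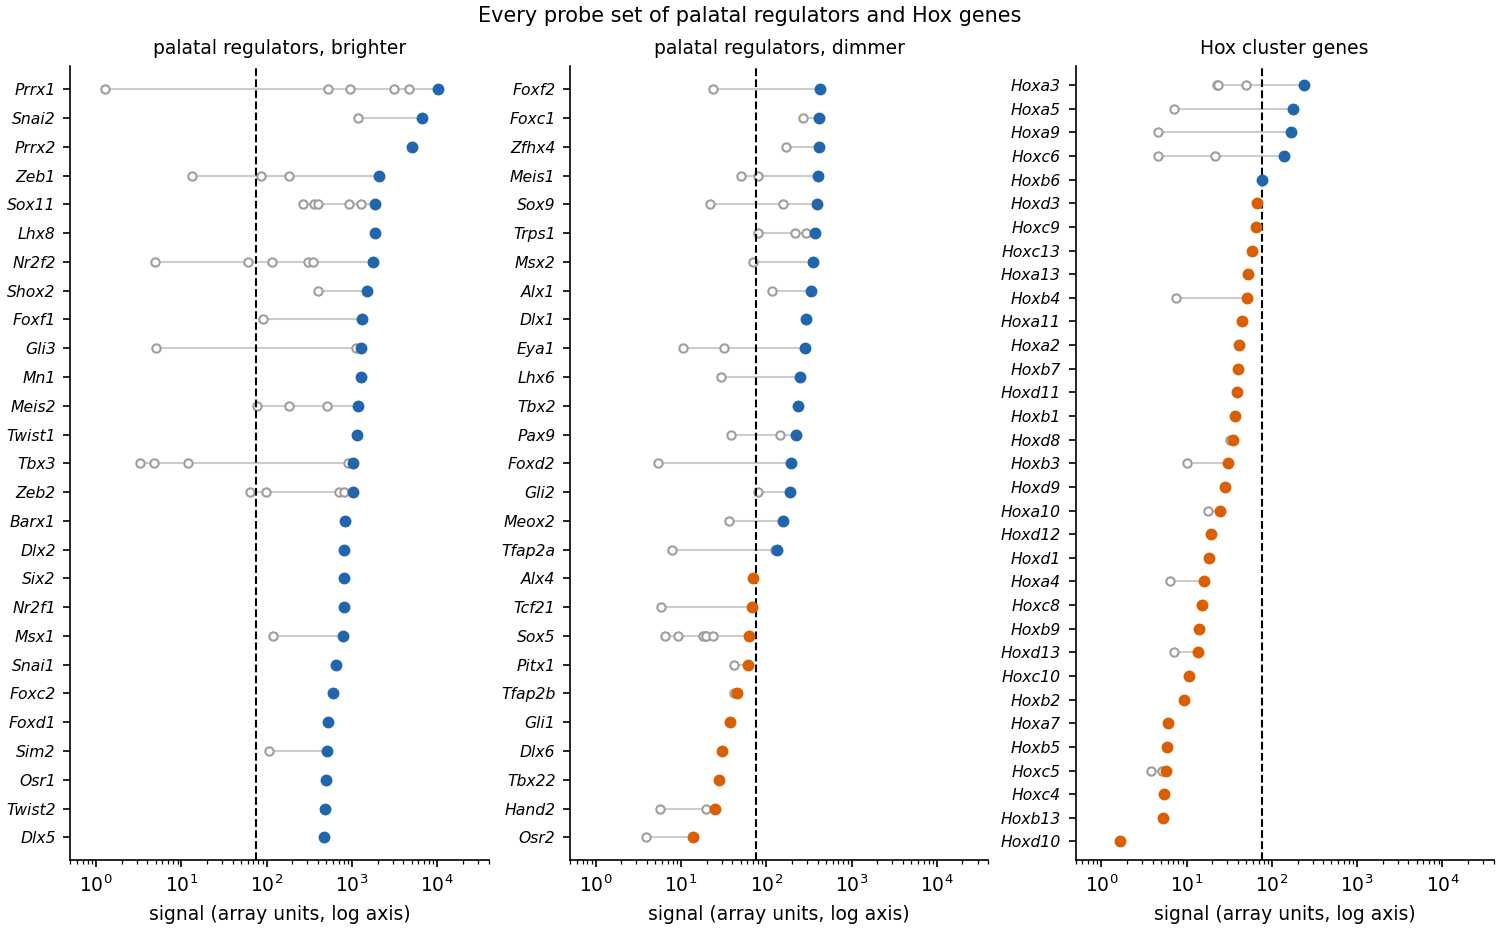
Signal of every probe set (x axis, array units, log scale) of the 54 palatal mesenchyme regulators (left and middle panels) and the 33 Hox cluster genes (right panel), with genes on the y axis ordered by their brightest probe set. Filled points are the brightest probe sets, blue at or above the background bound and orange below it, open circles are the others, and the dashed line is the bound of 75.9. Of the palatal regulators 44 are blue, with Osr2 at the foot of the middle panel, and of the Hox genes 5 are blue.

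Regulators of other territories were mostly below the bound as well. Of 18 forebrain and neural regulators 1 was above it, Emx2 (589), and of 11 endoderm regulators 0 were, the highest being Gata6 with 72.3. Of 21 trunk and limb mesoderm regulators 6 (28.6%) were at or above the bound. These were Tbx15 (771) and Tbx18 (319), T-box factors that are also known from craniofacial mesenchyme, Meox1 (358), Pax3 (179.5), a factor of neural crest and muscle precursors, En1 (81.4) and Gata4 (78.1). Pax3 was above the bound on each of its 3 probe sets, at 123 or more. Tbx5 and Tbx4, the limb factors, had 9.70 and 18.6.

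Among 418 transcription factor genes of 29 families, 219 (52.4%) were at or above the bound and 25 (5.98%) in the top 10%, with a median percentile of 40.4. Apart from Prrx1, Snai2 and Prrx2, none of the brightest 20 was on the list of palatal mesenchyme regulators. Id2, a dominant negative partner of bHLH factors and a known target of BMP signals, had 10566, and Id3 and Id1 had 8378 and 4944. Atf4 and Atf5, factors of the amino acid and unfolded protein stress response, had 10329 and 8491. Hif1a, the oxygen-sensing factor, had 9167, and Nfix, of the nuclear factor I family, 7977. Sox4, a relative of Sox11, had 7733 on the brightest of 8 probe sets and 3.86 on the dimmest. Cbfb, the partner of the Runx factors, had 7409, and Maf, a factor known from macrophages and other cells, 6747. Tead1, through which the Yap and Taz cofactors act, had 5209. Irx3 and Irx5, Iroquois homeobox genes, had 2868 and 1030.0, the only members of that homeobox subfamily at or above the bound among the 6 measured, with Irx2 at 63.7.

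The TGF-β superfamily ligands were led by a few genes. Of 18 ligands 12 (66.7%) were at or above the bound and 2 (11.1%) in the top 10%, with a median percentile of 42.9. Inhba was the brightest, but its 2 probe sets gave 10201 and 3.14, so its rank rested on one of them. Tgfb3, the isoform that palatal fusion needs in the medial edge epithelium, had 5137 on 1 probe set. Tgfb2, the ligand later added to the other cultures, had 4 probe sets from 195 to 1452, and Tgfb1 had 534 and 60.0. The culture thus gave signals for all 3 TGF-β isoforms before any was added. Among the bone morphogenetic proteins Bmp4 was followed by Bmp2 (136) and Bmp5 (99.8), while Bmp7 (54.3) and Bmp6 (57.9) were below the bound. With a bound of 143, 7 of the 18 ligands were above.

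Of 22 receptors and antagonists of this superfamily 19 (86.4%) were at or above the bound and 5 (22.7%) in the top 10%. By the second-brightest probe set 11 of these 22 and 9 of the 18 ligands were at or above it, so the counts of receptors and ligands did not differ in the same way there. The TGF-β receptors Tgfbr2 and Tgfbr1 had 4381 and 3561, and the BMP receptors Bmpr2, Acvr1 and Bmpr1a 4789, 2900.4 and 1872. Acvr1b and Acvr2a, receptors for activin, had 579 and 429. Of the antagonists Grem1, which binds BMPs, was the brightest gene of the list with 11125. Fst, follistatin, which binds activin, had 1769 and 1193, and Nog, noggin, was below the bound at 8.45. The signal transducers gave 17 of 18 at or above the bound and a median percentile of 79.5. The common Smad4 had 4684, the TGF-β Smads Smad3 and Smad2 2046 and 835, and the BMP Smads Smad1 and Smad5 2582 and 866. The inhibitory Smad6 and Smad7 had 2321 and 1810.2. Map3k7, the gene of the kinase Tak1, had 479.7 on the brightest of 6 probe sets and 18.5 on the dimmest, and its partner Tab2 had 5713.

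Most FGF and Wnt ligands were below the bound. Of 22 FGF ligands 5 (22.7%) were at or above it, led by Fgf7 with 2776 and 1049, and then Fgf13 (338), Fgf4 (139.9), Fgf21 (111) and Fgf9 (81.3). Fgf7 was the only ligand of the list with a second probe set at or above the bound. Of the FGF receptors 4 of 5 were at or above it, with 2077 for Fgfr1, 636 for Fgfr3 and 506 for Fgfr2, and Fgfr4 at 75.7, just below the bound. Of 19 Wnt ligands 9 (47.4%) were at or above the bound. Wnt5a, which acts largely outside the β-catenin pathway in palatal mesenchyme, had 2445 and was followed by Wnt4 (357) and Wnt10a (279). With a bound of 143 the FGF and Wnt counts were 2 and 5. Of 27 Wnt receptors and antagonists 22 (81.5%) were at or above the bound, led by Fzd1 (3473), Dkk3 (2827), Fzd7 (2770.2) and Sfrp1. By the second-brightest probe set 12 of the 27 were. The other probe sets of Fzd1 and Fzd7 gave 32.8 and 8.54, both below the bound. Axin2, a target gene of the β-catenin pathway, had 112.

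**Figure D4:**
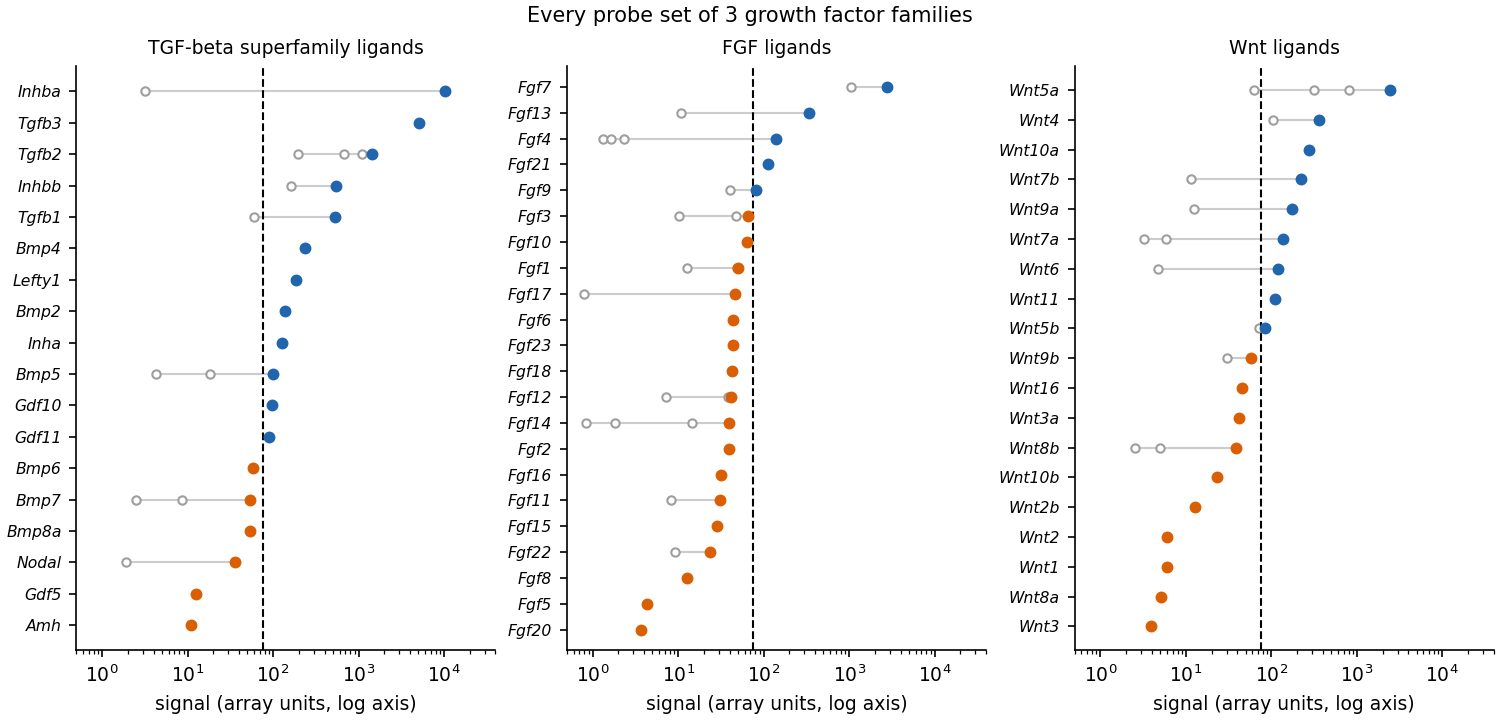
Signal of every probe set (x axis, array units, log scale) of the TGF-β superfamily, FGF and Wnt ligand genes measured on the untreated array (y axis, ordered by the brightest probe set). Filled points are the brightest probe sets, blue at or above the background bound of 75.9 (dashed line) and orange below it, and open circles are the gene's other probe sets. Blue points number 12 of 18, 5 of 22 and 9 of 19 in the 3 panels, and Inhba, Fgf7 and Wnt5a head them.

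Of 33 ligands of the PDGF, VEGF, IGF, HGF and related families 29 (87.9%) were at or above the bound and 8 (24.2%) in the top 10%. Ptn, pleiotrophin, had 9609, and Igf2, the fetal insulin-like growth factor, 8777 and 82.1. Csf1, the growth factor of macrophages, had 8316, and Igf1, which fibroblasts and macrophages both make, had 4 probe sets from 3001 to 5060.1. Pdgfc, a ligand that palate closure needs, had 4704 and 4447, and Pdgfa 2421 and 2169. Vegfa, which drives vessel growth, had 2854. Pdgfra and its ligands Pdgfa and Pdgfc thus all gave signals in 1 culture. Of 27 growth factor receptors 23 (85.2%) were at or above the bound. By the second-brightest probe set 13 were. Pdgfrb and Pdgfra were among the brightest 3, with the collagen receptor Ddr1 (4138) between them. Axl, a receptor of Gas6, had 3043, Ryk, a Wnt co-receptor, 2773, Ddr2, another collagen receptor, 2254, and Igf1r 2244. Egfr had 707 and Met, the HGF receptor, 526.

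Of 13 hedgehog pathway genes 9 (69.2%) were at or above the bound. Of the ligands Ihh, known from cartilage, was just above it at 88.4, and Shh, which the palatal epithelium makes, and Dhh were below it at 49.3 and 26.1. The receptor Ptch1 had 688, the transducer Smo 2239.8, the co-receptors Gas1 and Boc 4819.9 and 1027, and the effectors Gli3 and Gli2 1289 and 190.3. Gli1 and Hhip, genes that hedgehog signals induce, were below the bound at 37.8 and 29.6. Foxf1 and Foxf2, named above as targets of hedgehog signalling, were above it at 1312 and 426, so such targets differed by gene. In the Notch pathway 12 of 16 genes were at or above the bound, led by the ligand Jag1 (3056), the nuclear partner Rbpj (2634) and the receptor Notch2 (1446). The endothelial members Dll4 and Notch4 were below it at 64.0 and 51.0.

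Macrophage genes ranked nearly as high as the mesenchymal ones. Of 25 macrophage markers 24 (96.0%) were at or above the bound and 17 (68.0%) in the top 10%, with a median percentile of 94.3. After Lyz2 came the lysosomal protease gene Ctss (13085) and the signalling adaptors Tyrobp (10397) and Fcer1g (9142). The complement genes C1qa, C1qb and C1qc had 10623, 7862 and 6348, and the 3 probe sets of C1qb were all at 5044 or more. Csf1r, the receptor of Csf1 and a defining gene of the lineage, had 3 probe sets from 1095 to 8693. Adgre1, which codes for F4/80, had 4183, Cd68 8687 and Mrc1, the mannose receptor, 4833. Of the lower members Ptprc, the pan-leukocyte CD45, had 1721, the lineage factor Spi1 430.1, Itgam 390.2 and Cx3cr1 157. Cd163 was the only one below the bound, at 6.63. The number of macrophages in the culture and the RNA in each cannot be told apart in RNA from the whole culture, and the same holds for each cell type below. Genes that macrophages share with mesenchyme, among them Igf1, Cd44, Maf, Mmp12 and Mmp9 above, carry a signal whose source among the cells was not tested.

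Other blood cells left little signal. Of 19 markers of mast cells, neutrophils and lymphocytes 2 (10.5%) were at or above the bound, S100a8 (283) and Cd8a (234), and the T cell gene Cd3e (20.6), the B cell gene Cd79a (22.1) and the mast cell protease gene Cma1 (42.1) were below it. Of 11 erythroid genes 1 was above, Epor (147), and the haemoglobin genes Hba-a1 and Hbb-y had 17.1 and 2.58. The median percentiles of these 2 lists were 23.9 and 14.8, near the 17.5 of the sensory receptor genes. All 4 haemoglobin genes measured were below the bound.

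Endothelial genes were mostly below the bound. Of 16 there were 5 (31.2%) at or above it: Eng, Egfl7 (199), Kdr (195), Flt1 (185) and Vwf (103). The defining surface genes Pecam1, Cdh5 and Tie1 had 7.31, 45.8 and 1.18. For pericytes and smooth muscle 11 of 15 (73.3%) were at or above the bound, but the 4 brightest, Acta2, Tagln (12830.1), Pdgfrb and Cnn1 (4625), also belong to the mesenchymal or contractile lists. The pericyte gene Rgs5 had 133. The more restricted Myh11, Myocd, Abcc9 and Kcnj8 were below it at 72.6, 15.3, 7.38 and 5.10. Of 18 skeletal muscle genes 6 (33.3%) were at or above the bound, led by Acta1 (836), with Myod1 at 87.4 and 27.4. Myog, Myf5 and the fetal myosin Myh8 were below it at 18.1, 22.4 and 28.9, and the list's median percentile was 16.4. None of its 3 genes there with several probe sets (Des, Ckm and Myod1) had a second one at or above the bound.

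Epithelial genes gave a weak and mixed picture. Of 28 palatal epithelium genes 15 (53.6%) were at or above the bound and 0 in the top 10%, with a median percentile of 38.7. Krt8 and Krt18, keratins of simple epithelium, had 563 and 304, and Krt8 was at 304 or more on its 3 probe sets. Epcam, an epithelial adhesion gene, had 369 and 140.4, Cdh1, E-cadherin, 257, and the basal keratins Krt14 and Krt5 205 and 195. These markers were above the bound. The basal regulator Trp63 had 27.8, and the splicing factor genes Esrp1 and Esrp2 18.4 and 13.2, all below it. Over all 48 keratin genes 12 (25%) were at or above the bound, the highest being Krt6a with 821. Among 19 genes of cornified epithelium and periderm, the flat outer layer of the embryonic epithelium, 7 (36.8%) were.

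Markers of nerve and crest progenitors varied by gene. Of 16 neuronal genes 6 (37.5%) were at or above the bound. Ncam1 (3392), which mesenchymal cells also express, and the tubulin regulator Stmn2 (1703 and 311) were the brightest. The neuronal tubulin Tubb3 had 706, Rbfox3, which codes for NeuN, 115, and the synaptic gene Syt1 78.2, and the growth cone gene Gap43 lay between Tubb3 and Rbfox3. The other 10 were below the bound, among them Snap25, Dcx and Elavl4 at 4.54, 33.7 and 46.9. With a bound of 159 the count was 3. Of 12 Schwann and crest progenitor genes 8 (66.7%) were at or above it, and none of the multi-probe members had a second probe set there. Pmp22, a myelin gene also known from fibroblasts, had 5506. Sox10, the factor of migrating crest and glia, had 95.7 on the brightest of 3 probe sets and 5.00 on the dimmest, and Foxd3 46.8. Of 9 melanocyte genes 1 was above the bound, Mitf (439.7), a factor that macrophages and osteoclasts share, while the pigment genes Dct and Tyrp1 had 49.7 and 26.4.

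**Figure D5:**
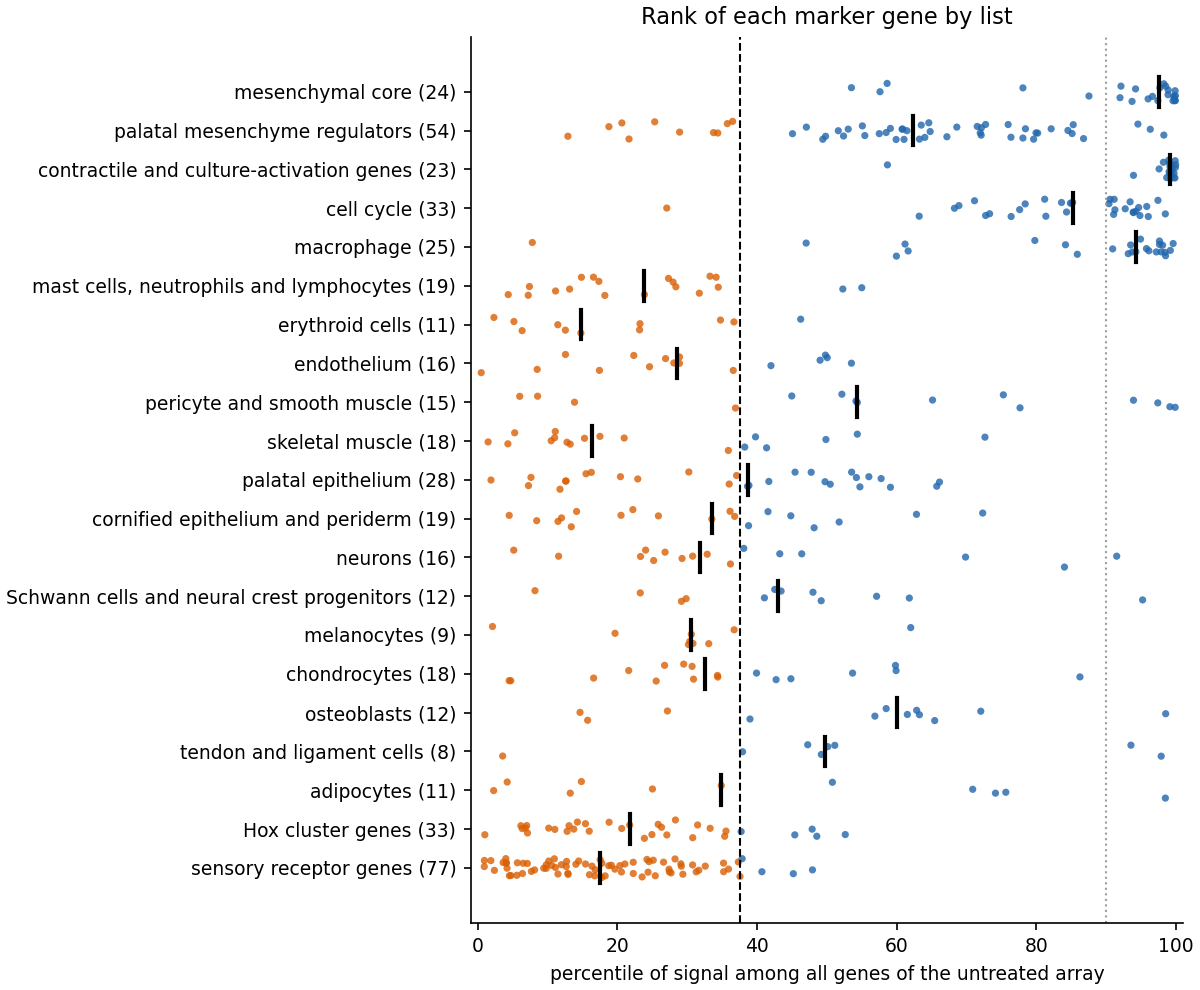
Percentile of signal among all 18193 genes of the untreated array (x axis) for each measured gene of 21 lists (y axis, number of genes in brackets). Points are genes, blue at or above the background bound and orange below it, black bars are list medians, the dashed line is the bound at percentile 37.6 and the dotted line marks the top 10%. The mesenchymal, contractile and macrophage lists have medians of 97.5, 99.2 and 94.3, and the erythroid, skeletal muscle and Hox lists 14.8, 16.4 and 21.8.

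Of the skeletal and connective tissue lineages, bone was represented more than cartilage. Of 12 osteoblast genes 9 (75%) were at or above the bound. Sp7, osterix, the factor of committed osteoblasts, had 806, Ibsp, bone sialoprotein, 464, and Alpl, alkaline phosphatase, 323, whereas the osteocyte genes Dmp1 and Sost were below it at 41.7 and 16.9. Of 18 chondrocyte genes 7 (38.9%) were at or above the bound. Sox9, the regulator of cartilage, had 389, its partner Sox6 109.9, and Matn1 and Cnmd were below it at 40.7 and 50.7. Of 8 tendon genes 7 were at or above the bound, including Scx, a tendon factor, with 160.3 and 155, and Tnmd, tenomodulin, with 214. Of 11 adipocyte genes 5 were: Lpl, lipoprotein lipase, which macrophages also express, had 10569, and Pparg 209, while Adipoq and Lep, hormone genes of mature fat cells, had 14.4 and 3.80. As a further reference, 6 of 43 genes restricted to organs outside the head were at or above the bound, with a median percentile of 18.8.

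The culture gave strong signals for cell division and for a contractile cytoskeleton. Of 33 cell cycle genes 32 (97.0%) were at or above the bound and 16 (48.5%) in the top 10%. Pcna, the replication clamp, had 10568, Rrm2, a subunit of ribonucleotide reductase, 8379, Cdk1, the mitotic kinase, 4844, and Mki67 2986. All 8 cell cycle inhibitors were at or above the bound too, with Cdkn1a, which codes for p21, at 8421 and 5832 and Cdkn2a at 755. Of 23 contractile and culture-activation genes all were at or above the bound and 22 (95.7%) in the top 10%, the highest median percentile of the non-ribosomal lists at 99.2. Besides Acta2, these included Tagln, Myl9, the regulatory myosin light chain, with 12959, Tpm1 and Tpm2, tropomyosins, with 13455 and 14332, and Vcl, vinculin, with 15784. The exception to the top 10% was Ankrd1, a target of Yap and Taz, with 359 and 304.

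Genes of acute activation were also measured. Of 24 immediate early genes 23 (95.8%) were at or above the bound and 9 (37.5%) in the top 10%. Ier3 had 6198, Jun 4687 and 1886, Egr1 4389 and Fos 1644, and Fosb was below the bound at 54.3. Of 22 inflammatory ligand genes 18 (81.8%) were at or above it. The chemokine genes Ccl6 and Ccl9, known from myeloid cells, had 11558 and 8691, Ccl2, which attracts monocytes, 5185, and Ptgs2, the inducible cyclooxygenase, 9842. Il1b, Tnf and Nos2, genes of strongly activated macrophages, had 54.1, 109.6 and 5.50, and of these Tnf was above the bound. Of 14 interferon-stimulated genes 12 (85.7%) were at or above it, among them Ifitm3 (16689.6), Rsad2 (2729.8) and Ifit1 (927). Both the X-inactivation RNA Xist (4163) and the Y-linked genes Eif2s3y (649.9), Uty (319) and Kdm5d (220.1) gave signals above the bound.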

How the data were processed

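Of the 4 arrays, only the one labelled untreated was used; 3 other columns were left out. The table the authors deposited holds linear intensity values for 45101 probe sets. The submitters' processing notes name GCOS, the Affymetrix array software, with the version and settings not given in the sources used here. Of 45037 non-control probe sets, 34945 carried 1 gene symbol in GEO's platform annotation, 932 several and 9160 none. Each of 18193 genes took its brightest single-symbol probe set, ranked as a percentile. No fold, replicate error or test was computed, since a single array limits the precision. The background bound and the 10% limit are described with the results. The members and gene lists were chosen with earlier results of these data known. Genes named are the 5 markers, the 30 brightest genes, up to 12 highest and 8 lowest members of each list, the 3 highest of each transcription factor family and the 20 highest factors. Acvr2a, Adgre1, Alx4, Axin2, Col7a1, Eln, Fbn2, Has2, Irx2, Irx5, Ltbp1 to Ltbp4, Mki67, Mmp9, Mrc1, Myl9, Tcf21, Thy1, Trp63 and Vcan fall outside that rule and were chosen after their values were seen. Promoters came from RefSeq (GRCm38.p6); a promoter was listed for 14452 genes (79.4%), under the 80% set for a comparison by signal, which is void. The bound, the percentiles and the choice of the brightest probe set were run on simulated data. There silent and transcribed genes had like numbers of probe sets, unlike the sensory receptor genes here. That run therefore does not check the bound for genes with several probe sets. Python 3.11.15, numpy 2.4.6, pandas 2.3.3 and matplotlib 3.10.9 were used.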

Additional observations from a re-analysis of the deposited data

How the results depend on the processing

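The 12 main counts of genes at or above the bound, over all genes and in single lists, were recomputed under 7 other settings. All 12 counts stayed within 1.5 times with the bound at the median probe set (66.3), with probe sets of several symbols added and without probe sets shared by several transcripts. With the median of each gene's probe sets, the Hox genes above the bound numbered 3 and the FGF ligands 3, from 5 and 5. With the bound at the 99th percentile of the sensory receptor genes (143), and equally with a bound from organs outside the head (159), there were 3 Hox genes, 7 TGF-β superfamily ligands (from 12), 3 skeletal muscle genes (from 6), 2 FGF ligands and 5 Wnt ligands (from 9). With the second-brightest probe set, a setting chosen after seeing the data, genes with 1 probe set keep their only value. There were then 1 Hox gene, 3 skeletal muscle genes, 2 FGF ligands and 4 Wnt ligands. Of the other lists, this setting also gave 11 TGF-β superfamily receptors and antagonists (from 19), 13 growth factor receptors (from 23), 12 Wnt receptors and antagonists (from 22), 3 Schwann and crest progenitor genes (from 8) and 2 sex-linked genes (from 4). The bound of 159 gave 3 neuronal genes (from 6), 4 chondrocyte genes (from 7) and 4 genes of cornified epithelium and periderm (from 7). With the limit at the top 5% of genes, 11 macrophage genes passed, from 17 in the top 10%. The Hox, FGF ligand, Wnt ligand and skeletal muscle lists had median signals of 30.5, 43.1, 58.2 and 20.2. These medians lie below the bound, where an array signal limits what can be ranked. The lists of TGF-β superfamily receptors, growth factor receptors and Wnt receptors, each with its antagonists where listed, had medians of 517, 272 and 255. The macrophage list had a median of 4833. No paired analysis was possible because there is 1 array and no comparison between groups.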

Other observations

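Probe sets with no gene symbol in the platform annotation were rarely bright. Of 9160 such probe sets 1648 (18.0%) were at or above the background bound, against 54.7% of the probe sets with 1 symbol. At the level of the top 10% of genes there were 151, the brightest with a signal of 20398, so some strongly measured transcripts of the culture are unnamed here.

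Genes with more probe sets ranked higher by their brightest probe set, and the part that the choice of the brightest has in this was not tested. The median percentile was 34.2 for the 9183 genes with 1 probe set, 57.7 for the 4695 with 2, 66.7 for the 2366 with 3 and 74.6 for the 1949 with 4 or more. The share at or above the bound was 46.0%, 72.2%, 83.1% and 90.6% in the same order. Lists of well-studied genes, which often have several probe sets, are therefore compared with the 62.4% of all genes on unequal terms.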
